A study of Mus musculus with 26 samples.

Results

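Genes of epithelial cell junctions and keratins were followed in 4T1 cells with and without the long noncoding RNA MaTAR25. The genes were given as a list of 43 symbols, and all 43 were found among the 45318 genes of the RNA-seq counts. The list holds 6 genes of adherens junctions, 8 of desmosomes, 14 of tight junctions and cell polarity, 6 keratins, 6 epithelial regulators and 3 genes of a cell-surface protease system. Of these, 42 had enough counts to be tested, and Krt5, the basal cell keratin, had 0 counts in each of the 9 libraries.

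Epithelial cells are held together by junctions. In adherens junctions, cadherins of neighboring cells bind each other outside the cell and catenins tie them to actin inside it. Desmosomes tie the keratin filaments of adjacent cells together, and tight junctions, built from claudins, occludin and the scaffold proteins under them, close the space between cells and mark the border between the apical and the lateral membrane. In mammary epithelium, Krt8, Krt18, Krt19 and Krt7 are keratins of luminal cells, and Krt5 and Krt14 are keratins of basal cells.

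4T1 is a cell line from a mammary tumor of a BALB/c mouse and is used as a model of triple-negative breast cancer. The control group (2 libraries) was labelled wild type and, per the methods, carried Cas9 with a guide RNA against Renilla luciferase, while KO1 (3 libraries) and KO2 (4 libraries) are knockout clones in which a pair of guides removed the region around the start site of MaTAR25. KO cells were sorted one by one, so KO1 and KO2 each stand for 1 clone, and a difference between a clone and the control cannot be told apart from a difference between clones. Per the methods the control cells were also grown as single-cell clones. The labels do not say from which control clone each control library came. Polyadenylated RNA of cultured, otherwise untreated cells was sequenced, and 4 peak lists of MaTAR25 chromatin pulldown in 4T1 and NDL tumor cells were used as a separate readout.

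The libraries held 25367211 to 61110585 gene counts each. The counts of MaTAR25 itself (symbol 1200007C13Rik) were 35 and 30 in control, against 0 to 11 in each of the 7 KO libraries. CPM are counts per unit of library size, scaled by TMM. Correlations of log2 CPM over all genes were 0.996 between the controls, 0.987 to 0.991 within KO1, 0.960 to 0.979 within KO2 and 0.945 to 0.972 between libraries of different groups. KO2 replicate 3 stood apart from the other KO2 libraries for the junction genes, as described below, so results that move by over 1.5 times or change their call without it are also given without it. Calls are those of edgeR with all libraries unless another setting is named. The labels do not say that libraries of a group came from separate cultures, so p-values measure only the spread between these libraries.

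Epithelial identity was checked first with Cdh1, Epcam, Krt8 and Krt18. Levels per length are CPM per kilobase of exon (RPKM), with all annotated exons of a gene joined, so the order depends on that length. By RPKM, the highest junction and keratin genes of the control were Krt18 with a mean of 787 and Cldn4 with 777. Cldn3, Krt8, Epcam and Cdh1 followed. Krt18 stayed first in both KO clones. Cldn4 came next in KO1, whereas in KO2 Krt8 came next and then Cldn4. Of the markers of other cell types, 8 of 10 leukocyte markers and 6 of 7 endothelial markers were under 1 CPM in every library. The remaining endothelial marker, Cdh5, had 1 and 0 counts in control, 0 in each KO1 library and 25, 33, 4 and 33 in KO2. At most 1.39 CPM, it was called higher in KO2 than in control and lower in KO1 than in KO2. The leukocyte marker Cd68 had 3.17 to 4.19 CPM in control and 11.4 to 28.3 in KO1, where it was called higher. In KO2 it had 19.4 CPM in replicate 3 and 1.77 to 4.11 in the other libraries. Csf1r, the other leukocyte marker above 1 CPM, had 4.94 to 5.44 CPM in control and 0.929 to 2.85 in KO1, without a call. In KO2 Csf1r had 8.64 CPM in replicate 3 and was below both controls in the other libraries. Of 16 mesenchymal and fibroblast markers, 8 were under 1 CPM in every library and Cdh2, Col3a1 and Dcn were at 0 counts. Others were expressed in control: Fn1, encoding fibronectin, had 2472 and 2527 CPM, Vim 258 and 381, and Pdgfra 17.7 and 21.8.

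Over all KO libraries against control, few of the 42 tested genes were called at an adjusted p below 0.1 in the edgeR quasi-likelihood test. Ctnnb1 rose (1 of 42, beside 11.9% of all 15023 tested genes), and Cdh1, Cdh3, F11r, Pard3 and Esrp1 fell (5 of 42, beside 10.7%). Together 6 of 42 genes (14.3%) were called, beside 22.6% of all tested genes. The median log2 change was -0.35, beside 0.06 over all genes, and 32 of the 42 values were below 0. In 9 of 42 genes (21.4%) no KO library overlapped a control library, beside 34.4% of all tested genes. These are the 6 called genes with Ctnnd1, Cldn12 and Crb3.

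The clones differed in how far these genes moved. In KO1, 5 of 42 genes rose (beside 15.9% of all genes) and 5 fell (beside 15.7%), with a median log2 change of -0.08. In KO2, 1 gene rose (beside 16.5%) and 14 fell (33.3%, beside 15.0% of all genes), with a median of -0.59. Tested directly, 12 of 42 genes (28.6%) were higher in KO1 than in KO2, beside 9.43% of all genes, and 1 was lower, beside 10.2%. These 13 genes are 31.0% of those tested, beside 19.6% of all genes. KO1 exceeded KO2 in 37 of the 42 values, with a median difference of 0.56 on the log2 scale, beside -0.02 over all genes. Among 61 further junction, keratin and epithelial genes tested, described below, it did so in 32, with a median of 0.004. The comparisons of KO1 and KO2 with control share the same 2 control libraries.

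**Figure D1:**
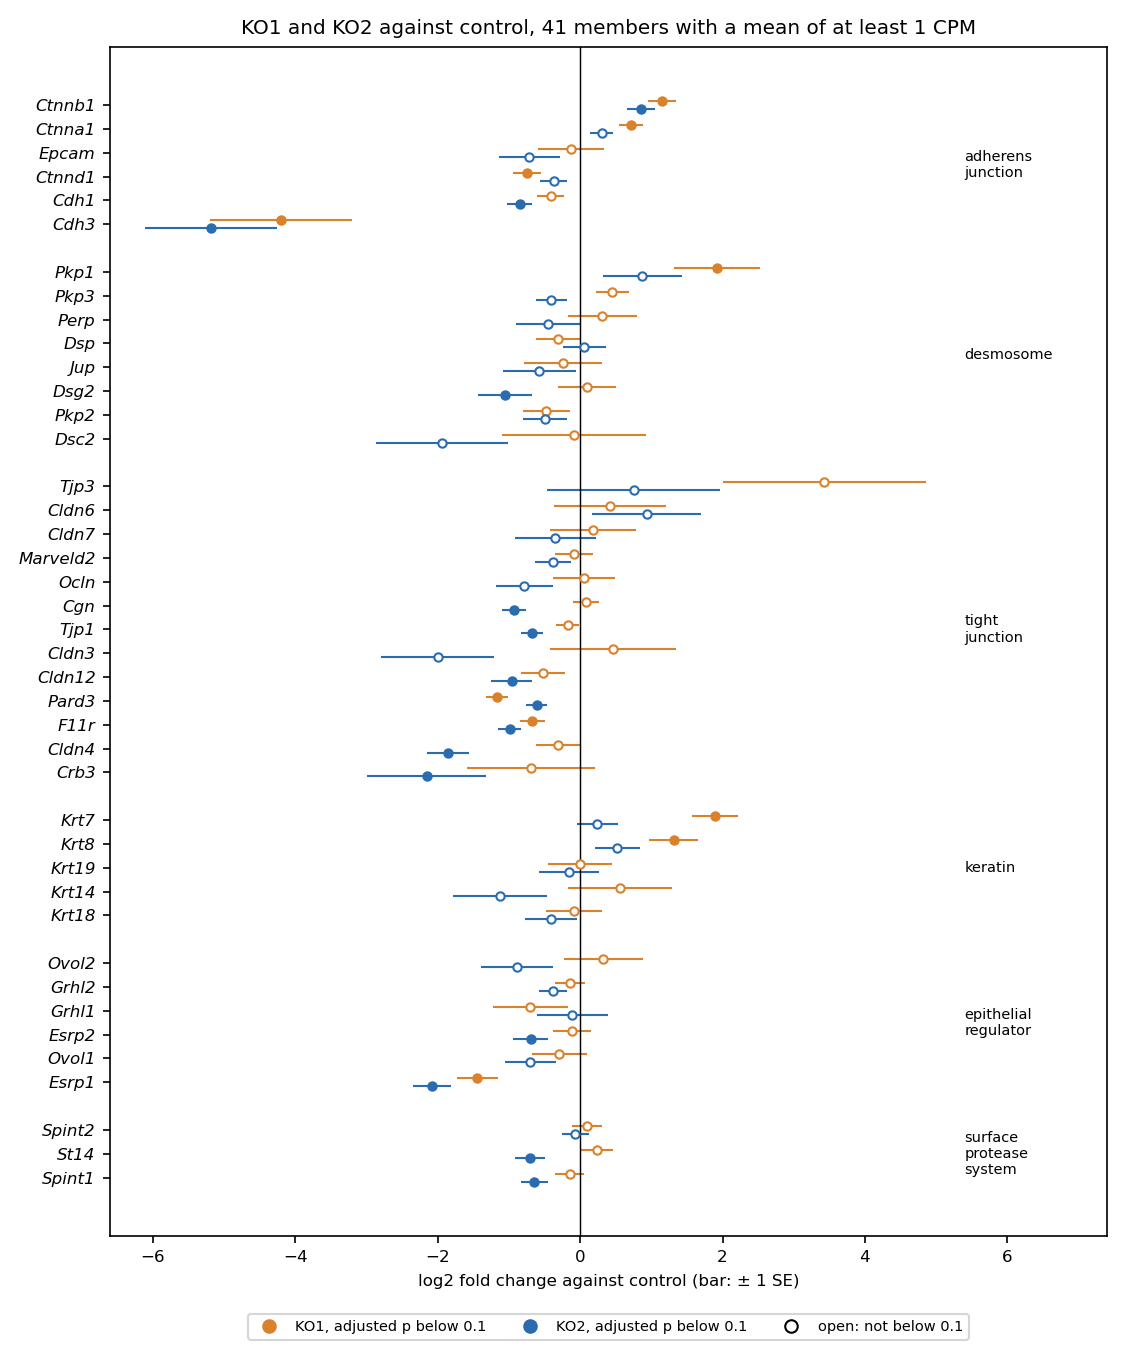
Log2 fold change of KO1 (orange) and KO2 (blue) against control for the 41 junction and keratin genes averaging at least 1 CPM, grouped by role. Bars are 1 standard error (SE), and filled points have an adjusted p below 0.1; Cdh3, F11r, Pard3 and Esrp1 are low in both clones, and Ctnnb1 is high in both.

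The spread within KO2 was wide and followed its libraries. For the 41 genes that averaged at least 1 CPM, the median log2 distance from the control mean was -0.71, -0.94, -0.12 and -0.61 in KO2 replicates 1 to 4, and -0.10, 0.12 and -0.17 in KO1 replicates 1 to 3. In KO2 replicates 1, 2 and 4, 32 to 37 of these genes were below both controls, against 23 in replicate 3. The median SD of the genes on the log2 scale was 0.508 in KO2, 0.206 in KO1 and 0.0707 in control. Over all tested genes at this level, it was 0.316, 0.173 and 0.0793.

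Replicate 3 was set aside for the values of these same genes, so added calls without it follow in part from that choice. Over all genes its correlations with the other KO2 libraries were 0.960 to 0.977, and those of replicate 2 were 0.960 to 0.979. With the KO1 libraries, replicate 3 correlated at 0.966 to 0.972, within its range for KO2. The other KO2 libraries correlated with KO1 at 0.949 to 0.964. Leaving out KO2 replicate 1, 2 or 4 added 2, 3 and 3 calls in KO2 and lost 3, 2 and 1. Without KO2 replicate 3, the calls in KO2 went from 15 to 24 of the tested genes, with the 15 retained, and the 9 added were Dsc2, Epcam, Grhl2, Krt14, Ovol1, Ovol2, Perp, Pkp3 and Cldn1. The Cldn1 call rests on 0 counts in 3 KO2 libraries against 3 and 1 counts in control, all within what a count of 0 allows, and its fitted direction turned from higher to lower, so no change is read from it. The calls of KO1 against KO2 went from 13 to 26 with the 13 retained, and 25 of these were higher in KO1. The 13 added were Cdh1, Cdh3, Cldn1, Crb3, Dsc2, Epcam, Esrp1, Esrp2, Ovol1, Ovol2, Perp, Pkp1 and Tjp3. Ctnnd1 was added in KO, and Cldn1, Pkp3 and Tjp3 in KO1. Of all genes tested without that library, 17.3% were lower in KO2 than in control and 13.5% were higher in KO1 than in KO2. The mesenchymal filament gene Vim stood at 381 and 258 CPM in control, at 321, 306 and 978 in KO1 and at 2858, 3143, 575 and 2775 in KO2. Within KO2, Vim was lowest in replicate 3, though above both controls there. By their median, though not in each gene, the junction genes of that library lay nearest to control. Zeb2, which encodes a repressor of epithelial genes, was at 18.2 to 18.5 CPM in control, 7.86 to 12.6 in KO1 and 52.9, 48.4, 10.4 and 44.1 in KO2, and was called lower in KO1 than in KO2 but not against control. The summed level of 16 mesenchymal and fibroblast markers was 2870 to 2946 CPM in control, 1699 to 2383 in KO1 and 2514 to 6650 in KO2. Vim and Fn1 carried this sum, which without them was 85.1 to 93.3, 71.8 to 85.7 and 62.1 to 132 CPM. The list did not move as one: Vim rose in KO2, Fn1 fell in KO1 and was not called in KO2, and Col1a1 fell in KO, KO1 and KO2 with log2 changes of -3.0, -3.43 and -2.75. Twist1 and Snai1 were not called in any of the 4 comparisons. The part of these markers in the differences between libraries was not tested, and in bulk RNA fewer cells of a type and less RNA per cell cannot be told apart.

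**Figure D2:**
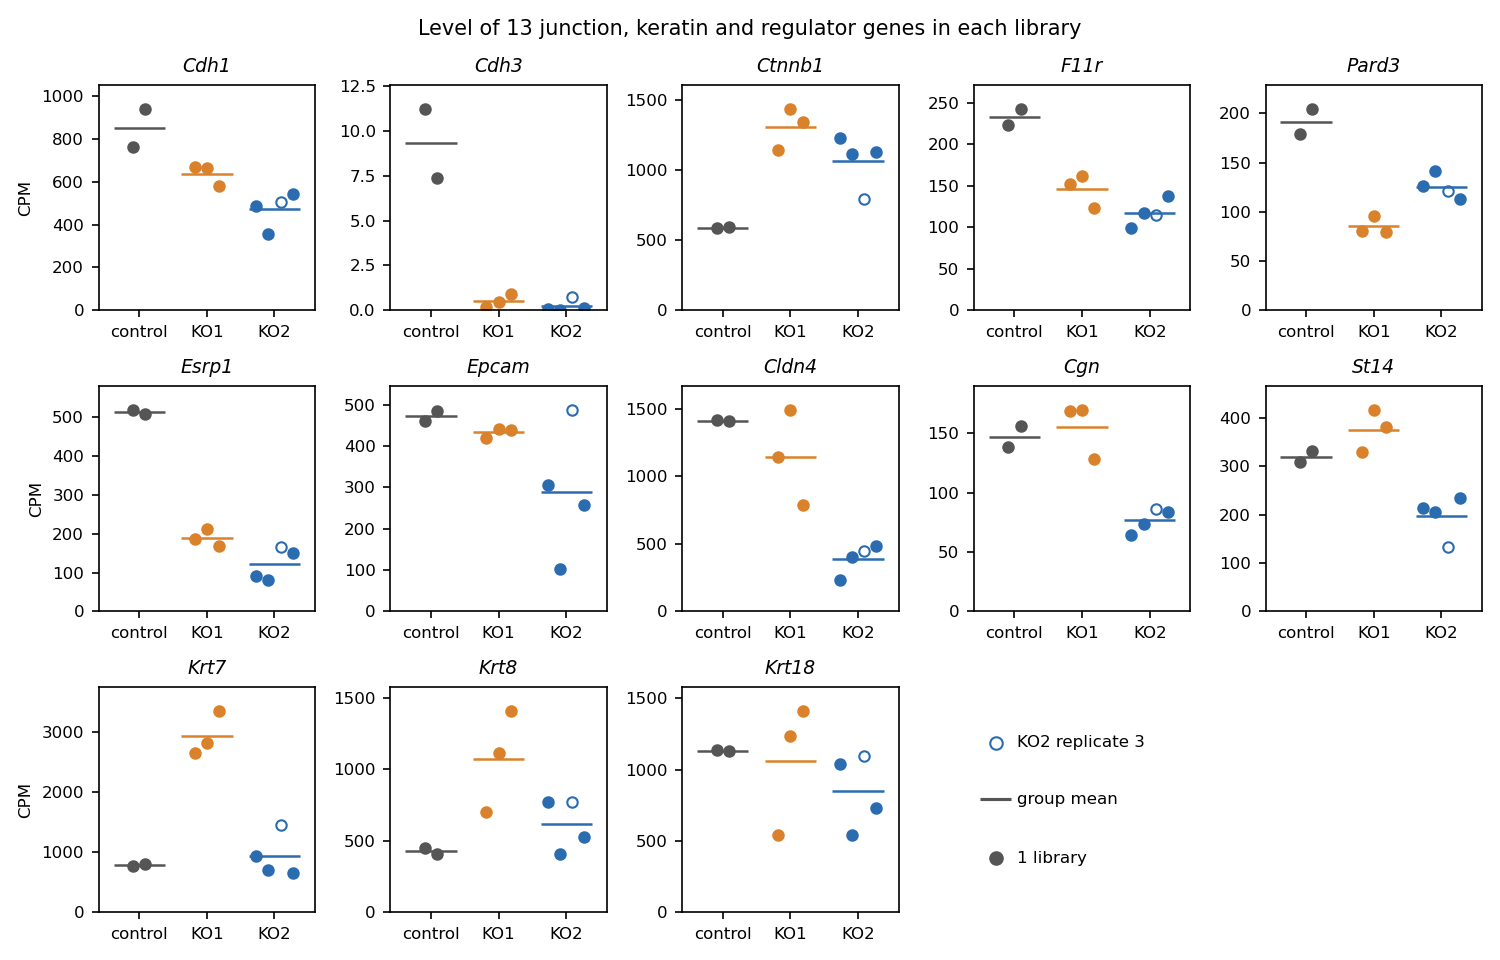
CPM in each library for 13 named genes, with control, KO1 and KO2 side by side and a separate linear axis for each gene. Points are libraries, lines are group means, and the open circle is KO2 replicate 3. Cdh3 and Esrp1 fall in every KO library, while Krt7 is above all other libraries in KO1.

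Adherens junction genes changed in both directions. Of 6 genes, 1 rose and 2 fell in KO against control (beside 11.9% and 10.7% of all genes), 2 rose and 2 fell in KO1 (beside 15.9% and 15.7%), and 1 rose and 2 fell in KO2 (beside 16.5% and 15.0%). Cdh1 (ENSMUSG00000000303, GRCm38 chr8:106603351-106670246), which encodes E-cadherin, had 759 and 939.5 CPM in control, 669.6, 665 and 578 in KO1 and 485, 354, 503 and 541 in KO2. Every KO library was below both controls, and every KO2 library was below every KO1 library. The log2 change was -0.65 ± 0.21 (SE; adjusted p = 0.0684) in KO, -0.41 ± 0.19 (adjusted p = 0.15) in KO1 and -0.85 ± 0.18 (adjusted p = 0.0105) in KO2.

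Cdh3 (GRCm38 chr8:106510891-106557297), which encodes P-cadherin and lies beside Cdh1, showed the lowest log2 change of the 42 genes. It had 511 and 241 counts in control, 11, 14 and 33 in KO1 and 2, 1, 32 and 7 in KO2, or 11.2 and 7.35 CPM in control and 0.0421 to 0.893 CPM in the KO libraries. No KO library came near the controls, and the KO1 and KO2 libraries overlapped. The log2 change was -4.68 ± 0.81 (adjusted p = 0.00587) in KO, -4.20 ± 0.99 (adjusted p = 0.0163) in KO1 and -5.18 ± 0.93 (adjusted p = 0.00537) in KO2. In KO2 it rests on 1 to 32 counts a library, and without replicate 3 the KO2 change was -6.68 and the difference between the clones went from 0.98 to 2.47, which passed the threshold.

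Ctnnb1 (ENSMUSG00000006932, chr9:120929216-120960507) encodes beta-catenin, which binds the cadherin tail and also carries Wnt signals to the nucleus. It had 588 and 591 CPM in control, 1143, 1436 and 1345 in KO1 and 1231, 1117, 791 and 1126 in KO2. All KO libraries were above both controls, by a log2 change of 0.99 ± 0.21 (adjusted p = 0.0126), and the clones overlapped each other. The counting was not stated to use strand, so genes with a partner on the opposite strand are uncertain. Among the genes called in any comparison these are Ctnnb1 (partner Ulk4), Ctnna1 (Lrrtm2), Dsg2 (Gm16090), Cldn3 (Wbscr25), Crb3 (Dennd1c), Krt7 (Gm671), Krt8 (Gm36026), Esrp1 (Gm26663) and Esrp2 (Nfatc3 and 1810019D21Rik).

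Ctnna1, encoding alpha-catenin, rose in KO1 by 0.72 ± 0.17 on the log2 scale (adjusted p = 0.017), where its 657 to 682 CPM lay above the 407 to 409 CPM of control. In KO2 it had 401 to 558 CPM in 3 libraries and 577 CPM in replicate 3, and was not called there. Ctnnd1, encoding p120-catenin, fell in KO1 by 0.74 on the log2 scale, with 29.8 to 44.1 CPM against 60.2 to 62.8 in control (adjusted p = 0.0253). Its 41.2 to 55.4 CPM in KO2 were also below both controls, without a call.

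Epcam, the epithelial cell adhesion molecule (chr17:87635979-87651129), had 460.5 and 485 CPM in control, 418, 442 and 438 in KO1 and 306, 104, 488 and 257 in KO2. KO2 replicate 3 was above both controls and the other KO2 libraries were below all KO1 libraries. The log2 change in KO was -0.43 with an approximate 95% interval of -1.28 to 0.41 (adjusted p = 0.532). Without KO2 replicate 3 the change in KO2 was -1.09 and passed the threshold, from -0.71 with it.

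Promoters of these genes were read for the E-box that Snail and Zeb repressors bind (letters CACCTG, or CAGGTG on the other strand) and for the core bound by Grainyhead-like factors (AACCNGTT, or AACNGGTT on the other strand). RefSeq promoter windows of 300 bases, from 250 before to 50 after the start, were matched for 28 of 43 genes. The E-box stood in the windows of 17 of the 28 genes (60.7%), beside 22.6% of all 27025 genes with a window. The Grainyhead-like core stood in 1 of the 28, Cgn, beside 2.35% of all genes. Such matches describe letters and show no binding. Below are 4 windows of genes whose values turn on the clone or on KO2 replicate 3 (5′ to 3′ in gene direction, build GRCm38.p6), with the E-boxes, or in Cgn the Grainyhead-like core, in capitals.
Epcam, chr17:87635729-87636028, plus strand: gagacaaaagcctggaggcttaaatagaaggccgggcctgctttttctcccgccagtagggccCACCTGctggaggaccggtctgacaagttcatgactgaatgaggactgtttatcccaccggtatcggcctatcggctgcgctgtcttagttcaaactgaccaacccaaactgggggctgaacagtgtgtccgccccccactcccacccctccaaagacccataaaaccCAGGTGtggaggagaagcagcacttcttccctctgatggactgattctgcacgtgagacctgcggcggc
Cldn4, chr5:134946885-134947184, minus strand: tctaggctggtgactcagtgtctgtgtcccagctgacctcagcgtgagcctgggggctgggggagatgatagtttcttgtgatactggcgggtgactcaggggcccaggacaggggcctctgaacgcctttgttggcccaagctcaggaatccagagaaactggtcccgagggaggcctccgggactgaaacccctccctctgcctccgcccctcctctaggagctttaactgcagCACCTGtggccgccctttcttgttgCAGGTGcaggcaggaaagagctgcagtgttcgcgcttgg
Krt7, chr15:101412153-101412452, plus strand: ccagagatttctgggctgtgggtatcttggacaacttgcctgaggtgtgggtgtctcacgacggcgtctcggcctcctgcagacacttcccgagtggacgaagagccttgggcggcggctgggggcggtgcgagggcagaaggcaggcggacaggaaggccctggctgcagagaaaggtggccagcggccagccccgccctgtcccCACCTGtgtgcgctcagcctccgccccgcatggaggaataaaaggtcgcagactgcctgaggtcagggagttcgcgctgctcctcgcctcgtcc
Cgn, chr3:94786433-94786732, minus strand: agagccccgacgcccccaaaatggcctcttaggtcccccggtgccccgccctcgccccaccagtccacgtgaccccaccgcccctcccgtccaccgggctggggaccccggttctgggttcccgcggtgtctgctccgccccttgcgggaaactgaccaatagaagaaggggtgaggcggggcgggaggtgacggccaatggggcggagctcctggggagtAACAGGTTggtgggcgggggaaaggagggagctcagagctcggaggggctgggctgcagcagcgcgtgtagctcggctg
The Epcam window holds E-boxes at -187 and -19 from the start, the Cldn4 window at -14 and 12, and the Krt7 window at -44. The Cgn window holds its match at -29 and no E-box.

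Among 8 desmosome genes, edgeR called 0 over all KO libraries (0 at an unadjusted p below 0.05, and 1, Pkp1, by DESeq2). By clone, 1 rose in KO1 (beside 15.9% of all genes), 1 fell in KO2 (beside 15.0%) and 2 were higher in KO1 than in KO2 (beside 9.43%). Pkp1, encoding plakophilin 1, rose in KO1 by 1.92 ± 0.61 on the log2 scale (adjusted p = 0.0475), from 5.16 and 6.25 CPM in control to 25.9, 22.4 and 16.7 in KO1. In KO2 it had 13.9, 2.78, 16.0 and 9.08 CPM, on both sides of the controls, and was not called. Dsg2, encoding the cadherin desmoglein 2, had 89.5 and 106 CPM in control, 118, 115 and 78.8 in KO1 and 25.0, 32.7, 74.6 and 55.7 in KO2. It fell in KO2 by 1.06 on the log2 scale (SE 0.37; adjusted p = 0.0704), and KO1 exceeded KO2 by 1.15 ± 0.34 (adjusted p = 0.0576) with no overlap.

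Pkp3, encoding plakophilin 3, was 209.7, 228 and 201 CPM in KO1 and 91.5, 113, 164 and 101 in KO2; control had 147 and 165 CPM. KO1 lay above control, and 3 KO2 libraries lay below it, with replicate 3 between the controls. The difference between the clones was 0.86 ± 0.19 on the log2 scale (adjusted p = 0.0239), while neither clone differed from control at the threshold. Without replicate 3, Pkp3 fell in KO2 by 0.61 on the log2 scale. Perp, a tetraspan protein of desmosomes, was set apart in KO2 replicate 3. It had 106, 178 and 92.2 CPM in the other KO2 libraries and 361 in replicate 3, against 244 and 262 in control. Without replicate 3 it fell in KO2, and KO1 exceeded KO2 by 1.32 on the log2 scale, which passed the threshold. Jup, encoding plakoglobin, had 121, 81.0, 392 and 297 CPM in KO2 against 318 and 345 in control. Dsc2, encoding desmocollin 2, had 1.81, 0.168, 9.38 and 5.42 CPM in KO2 and 13.2 and 19.2 in control, and without replicate 3 its changes of -2.68 in KO2 and 2.59 between the clones passed the threshold, in place of -1.94 and 1.85. Dsp and Pkp2, encoding desmoplakin and plakophilin 2, overlapped between KO2 and control and were not called in any of the 4 comparisons.

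Of the 14 tight junction and polarity genes, 2 fell over all KO libraries (14.3%, beside 10.7% of all genes), 2 in KO1 (14.3%, beside 15.7%) and 7 of 14 in KO2 (beside 15.0%). F11r (ENSMUSG00000038235, chr1:171437535-171464603), encoding the adhesion molecule JAM-A, had 223 and 243 CPM in control, 152, 162 and 123 in KO1 and 99.5, 118, 114 and 137 in KO2. All 7 KO libraries were below both controls, KO2 replicate 3 included. The log2 change was -0.85 ± 0.18 (adjusted p = 0.0133) in KO, -0.67 ± 0.18 (adjusted p = 0.023) in KO1 and -0.99 ± 0.16 (adjusted p = 0.00406) in KO2.

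Pard3 (ENSMUSG00000025812, chr8:127063893-127612286), a scaffold of the apical polarity complex, had 178 and 205 CPM in control, 80.7, 95.5 and 79.3 in KO1 and 126, 142, 121 and 113 in KO2. Control, KO2 and KO1 libraries did not overlap, with KO1 lowest. It fell in KO by 0.82 on the log2 scale (SE 0.22; adjusted p = 0.0317). Pard3 was the 1 gene lower in KO1 than in KO2, by a log2 difference of -0.56 ± 0.13 (adjusted p = 0.029).

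Cldn4 (ENSMUSG00000047501, chr5:134945119-134946934), a claudin of the tight junction strand, had 1413 and 1407 CPM in control, 1146, 1493 and 787 in KO1 and 230.5, 403, 449 and 481 in KO2. The KO2 libraries, replicate 3 among them, lay below all others, while KO1 overlapped control. Cldn4 fell in KO2 by 1.85 on the log2 scale (SE 0.29; adjusted p = 0.00345) and KO1 exceeded KO2 by 1.55 ± 0.27 (adjusted p = 0.011). Cldn3, a related claudin, had 358 and 346 CPM in control, 606, 511 and 336 in KO1 and 143, 171, 25.0 and 12.8 in KO2. KO1 exceeded KO2 by 2.46 ± 0.74 (adjusted p = 0.0623), and the log2 value against control, -2.0 in KO2, missed the threshold. Here KO2 replicate 3 was low, with replicate 4.

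Cgn (ENSMUSG00000068876, chr3:94760069-94786492), encoding the tight junction plaque protein cingulin, had 138 and 156 CPM in control, 169, 169.9 and 128 in KO1 and 64.5, 73.8, 86.4 and 83.5 in KO2. All KO2 libraries were below all others. It fell in KO2 by 0.93 on the log2 scale (SE 0.17; adjusted p = 0.00582), and KO1 exceeded KO2 by 1.02 ± 0.15 (adjusted p = 0.00639). Tjp1, encoding the scaffold ZO-1, had 286 and 284 CPM in control, 225 to 296 in KO1 and 161 to 201 in KO2. It fell in KO2 by 0.68 on the log2 scale (adjusted p = 0.0131).

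Cldn12 and Crb3 also fell in KO2, with log2 changes of -0.96 and -2.16. Cldn12 had 162 to 169.6 CPM in control and 55.3 to 121 in KO2 (adjusted p = 0.0401). Crb3, a membrane anchor of the apical polarity complex, had 27.9 and 29.5 CPM in control and 2.31, 5.18, 17.3 and 0.858 in KO2 (adjusted p = 0.091), again with replicate 3 nearest to control, and without that library the change was -3.40 and the difference between the clones 2.70, which then passed the threshold. Tjp3, encoding the scaffold ZO-3, varied widely. It had 5.69 and 2.44 CPM in control, 14.1, 77.5 and 40.7 in KO1 and 1.09, 0.632, 21.2 and 4.33 in KO2. With all libraries edgeR called it in none of the 4 comparisons, while DESeq2 called it in KO1 and between the clones. Without KO2 replicate 3, edgeR gave a difference between the clones of 4.39 ± 0.86, which passed the threshold, in place of 2.68. Cldn1 was at 3 and 1 counts in control, 39, 31 and 17 in KO1 and 0, 0, 27 and 0 in KO2, where a count of 0 allows up to 3 counts a library. Cldn6, Cldn7, Ocln and Marveld2 were not called in any comparison.

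**Figure D3:**
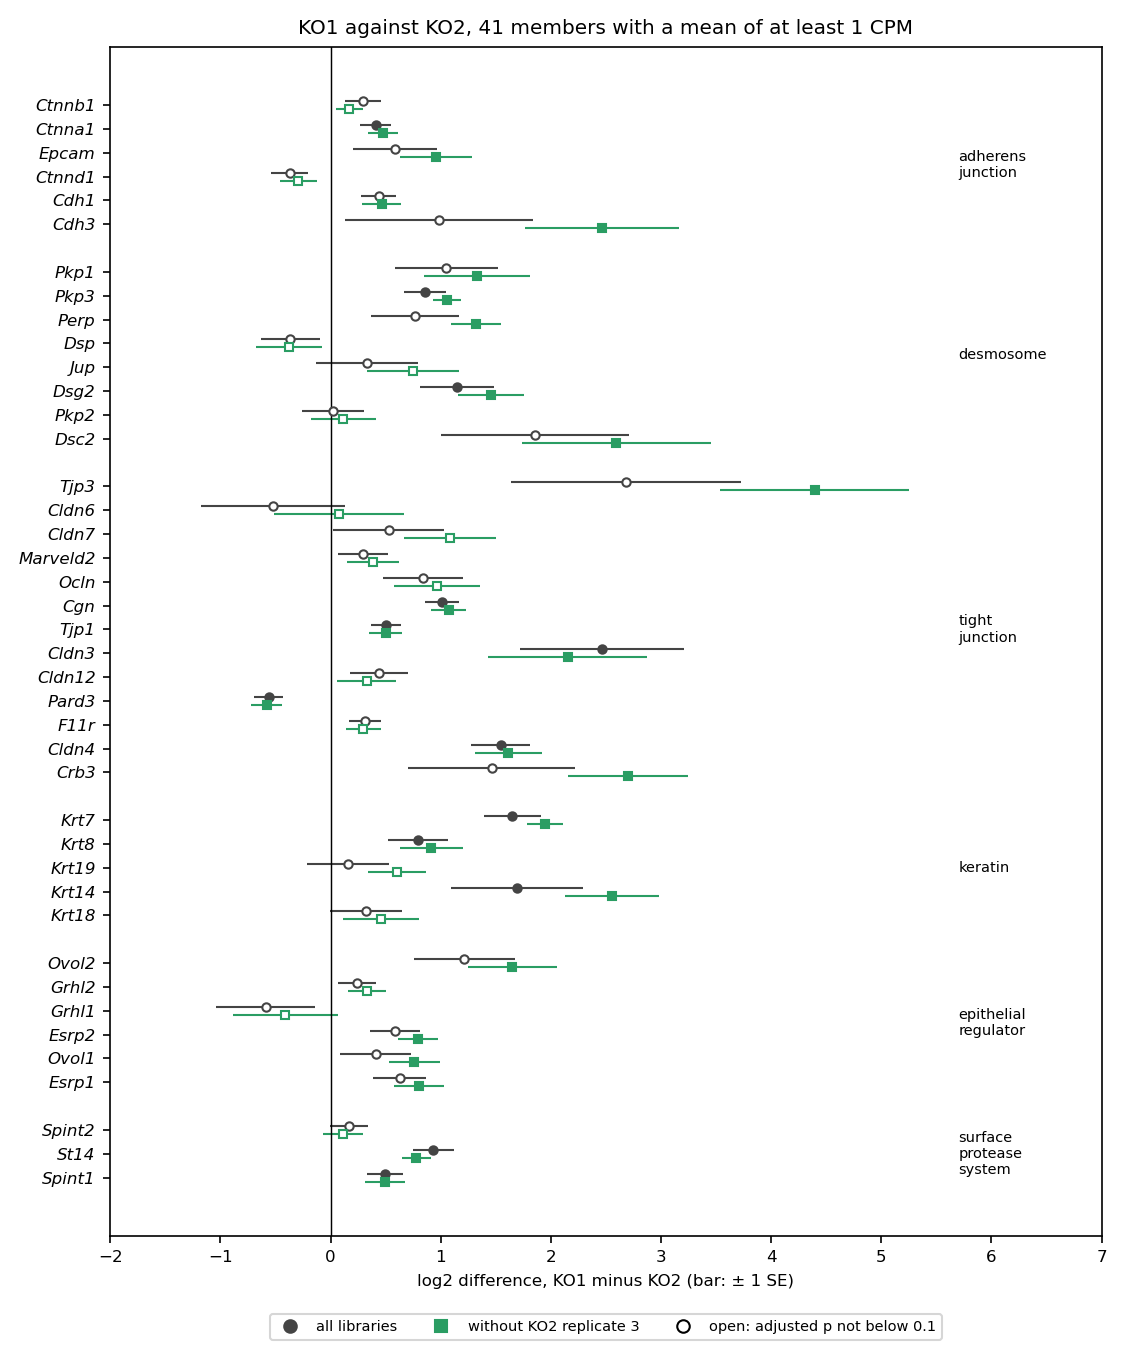
Log2 difference of KO1 minus KO2 for the same 41 genes, with all libraries (circles) and without KO2 replicate 3 (squares); filled symbols have an adjusted p below 0.1. Most values are above 0 in both, and calls among the 42 tested genes go from 13 to 26 without that library.

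Krt7 and Krt8, keratins of luminal cells, rose in KO1. Of 5 tested keratins, these 2 were called in KO1 (beside 15.9% of all genes) and 3 were higher in KO1 than in KO2 (beside 9.43%). In edgeR 0 were called over all KO libraries (1 at an unadjusted p below 0.05, and 1, Krt8, by DESeq2) and 0 in KO2 (0 by either). Krt7 (ENSMUSG00000023039, chr15:101411043-101430313) had 767 and 812 CPM in control, 2643, 2813 and 3348 in KO1 and 929, 702, 1455 and 651 in KO2. Every KO1 library was above every other library, and KO2 overlapped control. Krt7 rose in KO1 by 1.89 ± 0.33 on the log2 scale (adjusted p = 0.00468), and KO1 exceeded KO2 by 1.65 ± 0.26 (adjusted p = 0.00694).

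Krt8 (chr15:101996698-102004482) had 452 and 412 CPM in control, 699, 1116 and 1411 in KO1 and 769, 411, 772 and 524 in KO2. KO1 lay above control and overlapped KO2. Krt8 rose in KO1 by 1.32 ± 0.34 on the log2 scale (adjusted p = 0.0232), and the clones differed by 0.80 ± 0.27 (adjusted p = 0.0874).

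Krt18 (chr15:102028180-102032027), which pairs with Krt8 in filaments, had 1136 and 1127 CPM in control, 543, 1233 and 1412 in KO1 and 1042, 540.1, 1096 and 731 in KO2. KO1 spread over both sides of the controls, and all KO2 libraries were below them. The log2 change in KO was -0.26 with an approximate 95% interval of -0.95 to 0.42 (adjusted p = 0.645). The ratio of Krt8 to Krt18 on the RPKM scale was 0.292 and 0.268 in control, 0.945, 0.664 and 0.734 in KO1 and 0.542, 0.558, 0.517 and 0.526 in KO2. The groups did not overlap in this ratio, which is given without a test. Of the summed RPKM of the keratins on the list, Krt18 made up 65.2 to 66.3% in control, 32.6 to 44.3% in KO1 and 51.3 to 55.6% in KO2. Krt7 made up 8.98 to 9.73%, 20.6 to 32.4% and 10.1 to 13.9%. The joined exons of Krt7 span 7049 bases, against 1437 to 2197 for the other keratins on the list. If the expressed Krt7 transcript is shorter than that, its share is understated and the other shares are overstated.

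Krt14 had 6.50 and 8.69 CPM in control, 9.94, 17.1 and 6.60 in KO1 and 1.23, 2.48, 8.12 and 2.0 in KO2. KO1 exceeded KO2 by 1.69 ± 0.60 on the log2 scale (adjusted p = 0.0968), and KO2 replicate 3 lay within the KO1 range. Without it the difference was 2.56, and Krt14 fell in KO2 with a change of -2.0, in place of -1.13. Krt19 had 126 to 145 CPM in control, 80.2 to 183 in KO1 and 83.6, 84.4, 98.8 and 219 in KO2, the highest being replicate 3.

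**Figure D4:**
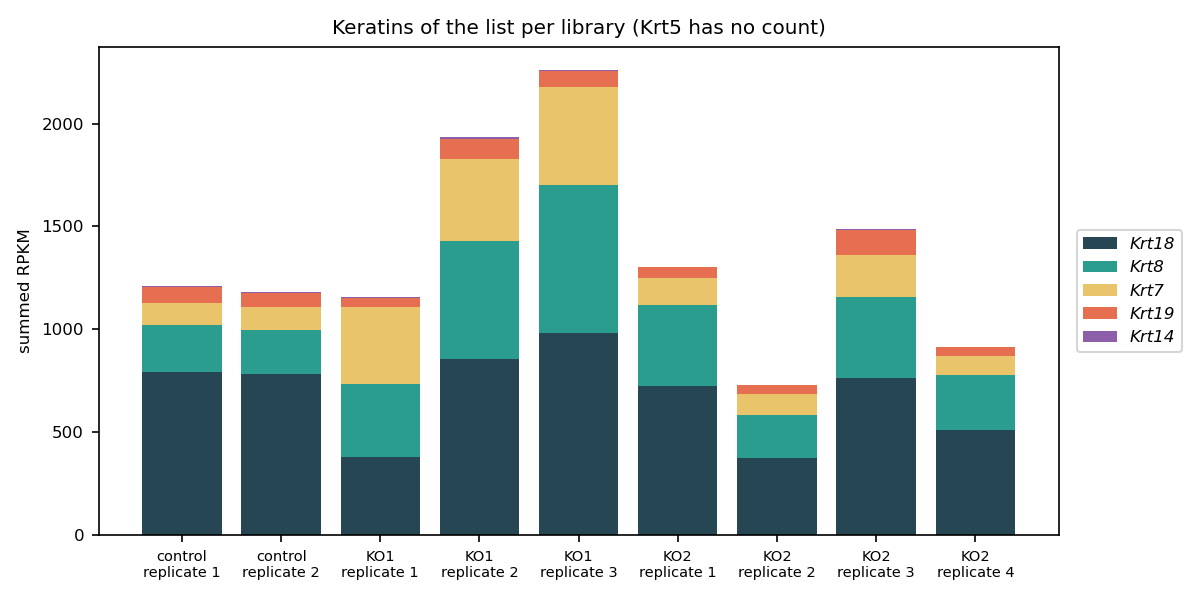
Summed RPKM of the keratins in each library, stacked by gene. Krt18 takes 65.2 to 66.3% of the sum in control and 32.6 to 44.3% in KO1, where the Krt7 and Krt8 layers are larger. Layer heights depend on the joined exon lengths, and that of Krt7 is the longest, at 7049 bases.

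Among 6 epithelial regulators, Esrp1 changed in every comparison with control. Esrp1 (ENSMUSG00000040728, chr4:11331933-11386783) encodes a splicing regulator that favors epithelial isoforms. It had 519 and 508 CPM in control, 187, 211 and 167 in KO1 and 92.2, 80.2, 165 and 150.2 in KO2. Every KO library was far below both controls, and every KO2 library was below every KO1 library. The log2 change was -1.77 ± 0.30 (adjusted p = 0.00523) in KO, -1.45 ± 0.29 (adjusted p = 0.00817) in KO1 and -2.08 ± 0.27 (adjusted p = 0.00154) in KO2, and the difference between clones was 0.63 (adjusted p = 0.121).

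Its paralog Esrp2 had 58.5 and 73.3 CPM in control, 52.3 to 68.8 in KO1 and 29.3 to 57.2 in KO2, and fell in KO2 by 0.70 on the log2 scale (adjusted p = 0.073). Grhl2, a transcription factor that activates epithelial junction genes, had 90.9 and 96.0 CPM in control, 73.0 to 91.8 in KO1 and 53.5 to 85.8 in KO2. With all libraries, edgeR did not call Grhl2 or the low-level regulators Grhl1, Ovol1 and Ovol2. Ovol2 was called between the clones by DESeq2, and without KO2 replicate 3 Grhl2, Ovol1 and Ovol2 fell in KO2, with log2 changes of -0.47, -1.06 and -1.33.

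In the surface protease system, 2 of 3 genes fell in KO2 (beside 15.0% of all genes), and these were higher in KO1 than in KO2 (beside 9.43%). St14 (ENSMUSG00000031995, chr9:31089402-31131853) encodes matriptase, and Spint1 and Spint2 encode its inhibitors. St14 had 308 and 331 CPM in control, 329, 416 and 379.8 in KO1 and 214, 205, 133 and 235 in KO2. All KO2 libraries were below all others, with replicate 3 lowest. St14 fell in KO2 by 0.70 on the log2 scale (SE 0.21; adjusted p = 0.0394), and KO1 exceeded KO2 by 0.93 ± 0.19 (adjusted p = 0.0175). Spint1 had 145 and 165 CPM in control and 81.4 to 124 in KO2, where it fell by 0.64 on the log2 scale (adjusted p = 0.0349). Spint2 had 288 CPM in both controls and 220.4 to 358 in the KO libraries, and was not called.

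The calls depend on the controls. With control replicate 1 or control replicate 2 left out, Cdh3 and Esrp1 remained called in KO, and Cdh1, Ctnnb1, F11r and Pard3 were lost, so that 2 of 6 were left. In KO1, 4 of 10 calls remained without control replicate 1 (Ctnnb1, Esrp1, Krt7 and Pard3) and 5 without control replicate 2 (the same with Cdh3). In KO2, 7 of 15 remained without control replicate 1 (Cdh1, Cdh3, Cgn, Cldn4, Esrp1, F11r and Pard3) and 5 without control replicate 2 (Cdh3, Cgn, Cldn4, Esrp1 and F11r). Calls over all genes fell as well. Without control replicate 1 or 2, the 4750 calls in KO1 became 1482 and 1764, and the 4724 in KO2 became 1366 and 1456. In the two-sided exact permutation test over 36 splits, Cdh1, Cdh3, Ctnnb1, F11r, Pard3 and Esrp1 each gave p = 0.0278, the smallest p that 2 against 7 libraries allow. In these 6 genes no KO library overlapped a control library, as in 34.4% of all tested genes. The permutation p largely restates that separation and is no separate support for the calls.

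Other junction, keratin and epithelial genes, 86 symbols of which 85 were in the counts and 61 were tested, gave 1 higher and 11 lower calls in KO against control (19.7% called, beside 22.6% of all genes). In KO1 4 rose and 13 fell (27.9%, beside 31.6% of all genes), and in KO2 3 rose and 15 fell (29.5%, beside 31.4%). Between the clones 12 were higher in KO1 (19.7%, beside 9.43% of all genes) and 7 were lower (11.5%, beside 10.2%). KO1 exceeded KO2 in 32 of the 61 values, with a median log2 difference of 0.004. The shift between the clones seen in the 42 listed genes was thus not shared by these genes as a group. Of the 24 further tight junction and polarity genes, 7 fell in KO (29.2%, beside 10.7% of all genes): Patj, Prkci, Pals1, Dlg1, Pard6b, Marveld1 and Marveld3. Patj, a scaffold of the Crumbs polarity complex, had 135 and 139 CPM in control, 67.8, 71.8 and 58.5 in KO1, and 76.1, 70.7, 71.8 and 68.3 for KO2. The log2 change was -0.98 ± 0.13 (adjusted p = 0.002), with little spread among the KO libraries and KO2 replicate 3 in their midst.

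Prkci and Pard6b encode partners of Pard3 in the apical complex, with log2 changes of -0.98 and -0.76 (adjusted p = 0.00759 and 0.0408). Pals1 and Dlg1 encode polarity scaffolds, with log2 changes of -0.88 and -0.97 (adjusted p = 0.0121 and 0.0116). Afdn, encoding the adherens junction protein afadin, fell by 0.74 (adjusted p = 0.0194). Klf5, encoding an epithelial transcription factor, had 100.3 and 98.1 CPM in control, 33.0, 50.5 and 41.4 in KO1 and 45.3, 56.3, 44.7 and 60.1 in KO2. It fell by 1.07 on the log2 scale (SE 0.20; adjusted p = 0.00793). Itgb6, encoding an epithelial integrin subunit, fell by 2.05 (adjusted p = 0.0911), and Cd24a, encoding a surface antigen of luminal cells, rose by 0.83 (adjusted p = 0.0982).

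MaTAR25 binding to chromatin was read from ChIRP-seq, in which biotinylated DNA oligos complementary to the RNA pull down the chromatin it touches. A peak list was deposited for the whole oligo pool in 4T1 cells, for its even and its odd oligos, and for the whole pool in NDL cells, mammary tumor cells of FVB mice. The NDL cells carry the label MMTV-PyMT, while the methods name MMTV-Neu-NDL. Replicates were pooled by the authors, so the lists allow no replicate test, and scores were compared only within a list.

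A peak of the 4T1 whole-pool list had its nearest promoter at 28 of the 43 genes (65.1%), beside 59.6% of all tested genes. For the even list it was 26 genes (60.5%, beside 52.9%), for the odd list 31 (72.1%, beside 52.4%) and for NDL 26 (60.5%, beside 58.0%). The even list holds no peak on chromosome 3, where Cgn lies, and 13.7% of its peaks are on chromosome 2, where Ctnnd1 lies, beside 7.27 to 7.38% in the other 3 lists. The 28 genes had 92 peaks, of which 47 were intronic, 31 intergenic, 5 exonic, 5 at transcript ends and 4 at promoters, those of Dsp, Krt5 and Tjp1. Scores ran from 16.5 to 770.8 with a median of 44.9, and 56 of the 92 peaks were overlapped by an NDL peak. Of the 27 tested genes with a peak, 4 were called in KO and 10 in KO2, and of the 15 without one, 2 and 5. Over all tested genes 22.6% were called in KO and 31.4% in KO2. These groups are small, and a difference between them was not tested. The median log2 change in KO was -0.33 with a peak and -0.36 without.

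**Figure D5:**
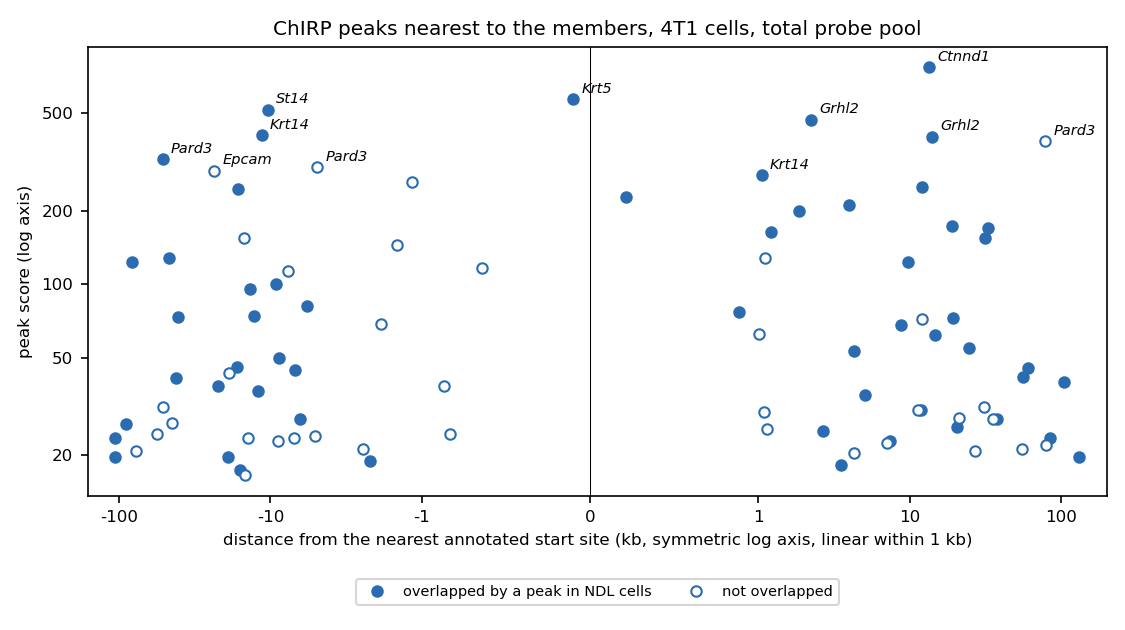
Peak score against distance from the nearest start site for the 92 peaks at junction and keratin genes in the 4T1 whole-pool list. Filled points are overlapped by an NDL peak; scores run from 16.5 to 770.8, and 29 are at least 100.

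The highest of these peaks had its nearest promoter at Ctnnd1 and was intergenic (chr2:84595905-84596529), outside the gene body (chr2:84600071-84650765), with a score of 770.8 and rank 160 of 76806. It was present in the even list with 381.3 and in NDL with 835.7, and the odd list had no peak there. The peak sequence holds a match of 16 bases to oligo 2 of the pool. Krt5, which had no RNA-seq count, carried the next highest peak, over its promoter (chr15:101712270-101713713), with 570.2 in the whole pool, 214.7 in the even list, 870.5 in the odd list and 698.7 in NDL. It holds no match of 12 bases or more to an oligo. St14 carried a peak of 518.0 in its first intron (chr9:31113607-31114231), with 320.5 in the even list, 53.9 in the odd list and 476.0 in NDL.

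Of the 92 peaks, 24 (26.1%) hold a match of at least 12 bases to 1 of the 14 oligos, beside 24.2% of all peaks in the list. Stretches of 120 bases of 3 such peaks, read from GRCm38 on the plus strand, show the matched bases in capitals, since such bases could pair with the oligos themselves. Their part in the peaks was not tested.
Ctnnd1, chr2:84596073-84596192: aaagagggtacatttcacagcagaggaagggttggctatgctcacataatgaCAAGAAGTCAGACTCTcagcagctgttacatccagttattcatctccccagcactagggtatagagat
St14, chr9:31113835-31113954: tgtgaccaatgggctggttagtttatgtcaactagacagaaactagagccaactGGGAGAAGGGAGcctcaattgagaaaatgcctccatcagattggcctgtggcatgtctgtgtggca
Pard3, chr8:127442672-127442791: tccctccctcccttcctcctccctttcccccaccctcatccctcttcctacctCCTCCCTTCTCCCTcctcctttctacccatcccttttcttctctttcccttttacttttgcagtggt
The capitals match oligo 2 in the peak nearest to Ctnnd1 and oligo 12 in St14 and Pard3. The Pard3 peak (chr8:127442538-127443162) had a score of 300.6 and a match of 14 bases.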

How the data were processed

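The 13 deposited files hold RNA-seq counts of 4T1 control, KO1 and KO2 cells and lists of ChIRP-seq peaks. The deposited counts are whole numbers per gene, which the authors made with STAR on GRCm38 and HTSeq on GENCODE vM5, without normalization and with no stated use of strand. KO2 replicate 2 lists each gene 3 times with equal counts and each was used once. The peak score deposited by the authors comes from HOMER over pooled replicates mapped with Bowtie2, against a Ppib pulldown, and how it was scaled is not stated.

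The 9 libraries were compared by edgeR 4.0.16 in R 4.3.3, by its quasi-likelihood test with TMM sizes after filterByExpr, and p-values were adjusted by Benjamini-Hochberg over all 15023 tested genes at a threshold of 0.1. KO was fitted against control in 2 groups, and KO1, KO2 and their difference in 3 groups. DESeq2 1.42.0, which the authors used, was an alternative, with other size factors, no filter, a threshold of 0.05, a replicate block and each library left out. CPM are TMM-scaled, and single genes were also compared by exact permutation of log2(CPM + 1). RPKM used exon lengths of GENCODE vM21, which also gave positions and symbols. The length of a gene is the union of the exons of all its annotated transcripts, whichever of them is expressed. Peaks and promoters were read in Python 3.11.15 with pysam 0.24.0, and shared peaks overlap by at least 1 base. Simulated counts with 200 changed genes were used to test the scripts.

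Library values were given for Cdh1, Epcam, Krt8 and Krt18, for up to 3 called genes of each role by adjusted p in KO, and for the 4 called genes with the smallest adjusted p between the clones. Of the further genes, the first called in each role (Afdn, Patj, Klf5 and Itgb6) is named by rule, and the others named were chosen after their values were seen. Other values were added to describe KO2 replicate 3 and each role. The members and lists were chosen with earlier results of these data known. Precision of a count is limited by depth, and bounds for a count of 0 cover counting error only.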

Additional observations from a re-analysis of the deposited data

Results flagged for a closer look

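In 13 junction and keratin genes the difference between KO1 and KO2 itself passed the edgeR threshold. Log2 differences of KO1 minus KO2 were 2.46 for Cldn3, 1.69 for Krt14, 1.65 for Krt7, 1.55 for Cldn4, 1.15 for Dsg2 and 1.02 for Cgn. They were 0.93 for St14, 0.86 for Pkp3, 0.80 for Krt8, 0.50 for Tjp1, 0.49 for Spint1 and 0.41 for Ctnna1, and -0.56 for Pard3. Adjusted p ran from 0.00639 for Cgn to 0.0968 for Krt14.

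KO2 replicate 3 lay far from the other KO2 libraries for Cdh3, with 0.724 CPM against 0.0421 to 0.143, and for Krt19, with 219 CPM against 83.6 to 98.8. In all, 41 genes were looked at in KO2, and chance sets a library apart in this way in about 1 of 20 groups.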

How the results depend on the processing

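No count and no value called with all libraries turned its direction in the alternatives run. Among uncalled values of the 42 genes, 52 pairs of value and setting in 20 genes turned sign, and 1 of these was called after turning, Cldn1 in KO2 without KO2 replicate 3. The 6 calls in KO became 10 with DESeq2 and 15 in the 3-group fit, and the 12 calls of further genes became 7 at a threshold of 0.05. Fitting only KO1 and control gave 19 calls in place of 10, and at 0.05 the 13 calls between the clones became 7. DESeq2, the 3-group fit and the fit of only KO1 and control also raised the calls over all genes. In KO the 3392 calls of 15023 genes became 4221 with DESeq2 and 4970 in the 3-group fit. The fit of only KO1 and control called 7752 of 14342 genes, in place of 4750 of 15023. Leaving out 1 library at a time gave 2 to 9 calls in KO, 4 to 13 in KO1, 5 to 24 in KO2, 5 to 26 between the clones, 1 to 11 of the further genes, and 0 to 7 single genes in the permutation test, which without a control cannot pass. Between the clones 7 calls were left without KO1 replicate 1 and 5 without KO1 replicate 2. Over all genes, the 2944 calls between the clones fell to 1424 of 14881 and 874 of 15085 in these 2 settings. At a score of at least 100, 15 genes (34.9%, beside 26.1% of tested genes) kept a peak in place of 28.

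With the replicate block the calls were 5 in KO (Cdh1 and Pard3 lost), 10 in KO1, 16 in KO2, 10 between the clones and 8 of the further genes. Same-numbered libraries correlated at -0.20 to 0.06 in their deviations from the group means. The deviations of the control libraries mirror each other, and the libraries are few. These values therefore cannot decide whether the numbers pair the libraries. Over all genes, 3392 calls in KO became 1952 with the block, 462 without control replicate 1 and 574 without control replicate 2. Of 252 values of named genes with a library left out, 225 stayed on their side of the threshold and 27 became weaker. Depth limits the low genes, since Cdh3 and Cldn1 rest on few counts in the KO libraries.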

Other observations

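Ehf, a transcription factor of epithelial cells, was among the further epithelial genes and stood out by clone. It had 0 and 2 counts in control, 640, 1956 and 1483 in KO1 and 0, 0, 2 and 0 in KO2. KO1 differed from control (adjusted p = 0.00114) and from KO2 (adjusted p = 0.000785) in the edgeR fit of 3 groups. KO2 replicate 3 was at 2 counts, as low as the other KO2 libraries. It was chosen for mention after its values were seen.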
